A study of Rattus norvegicus with 53 samples.

Results

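Late and middle hours of insulin exposure were compared in rat L6 myotubes: hours 7 and 8 against hours 3 and 4 of the insulin culture, to see which transcripts were still moving after the first hours of the hormone. The arrays were chosen by title alone and make up 11 of the 53 arrays of the series, 6 from hours 7-8 and 5 from hours 3-4. L6 is an established rat skeletal muscle line that fuses into myotubes. Here the cells were differentiated in medium with 1% serum and then held 8 h without serum, and they were sampled every 20 min in a time course that was repeated on 3 days, called letters a, b and c.

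The hours 7-8 arrays hold pools of the samples taken at 380 to 420 min (hour 7, letters a, b and c) and at 440 to 480 min (hour 8, letters a, b and c) in serum-free DMEM with 20 nM insulin. For hour 8, the duration label begins its pool at 400 min and the source label at 440 min. The hours 3-4 arrays hold pools from 140 to 180 min (hour 3, letters b and c) and from 200 to 240 min (hour 4, letters a, b and c) in the same medium and dose. Letter a had no hour 3 array in the insulin culture, so its earlier level came from hour 4 alone. The control culture received the same medium without insulin, and its changes were taken over the same letters and hours. Control levels given for hours 3-4 also include hour 3 of letter a. All groups are 1 cell line, and each time sample came from plates of its own. The letters are repeats of the line rather than animals, so the p-values rest on 3 days of culture. For each gene, limma takes the spread between days partly from other genes of similar level.

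Insulin acts through its receptor on the PI3K-Akt and MAPK cascades. MAPK signalling switches on immediate early genes, Akt holds FOXO factors out of the nucleus, and mTORC1 downstream of Akt raises ATF4, which drives amino acid synthesis genes, and SREBP, which drives sterol genes. Differentiated myotubes have left the cell cycle, but L6 cultures keep mononucleate cells that can divide. Shares of such cells and levels per cell cannot be told apart in RNA from whole plates.

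All values are log2 levels from Robust Multi-array Average (RMA) processing, in which 1 unit is a doubling, and each gene is given at its brightest probe set. Array medians lay between 6.30 and 6.37 over the 53 arrays. Myotube genes were bright, with mean levels of 13.5 for Acta1 (skeletal actin), 13.4 for Myh3 (embryonic myosin) and 12.4 for Myog (myogenin), and 0 of the 15 measured myotube markers passed the test between hours 7-8 and hours 3-4 (median change -0.0071). The 6 measured macrophage markers lay between 5.1 (Csf1r) and 7.7 (Cd14). Letter b of the control culture stood apart: its change from hour 5 to hour 6 had an SD of 0.28 over genes, against 0.13 to 0.247 for the other steps between hours in either culture. Several control changes are therefore also given by letter.

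In the insulin culture, 98 of 11631 genes passed limma's test of hours 7-8 against hours 3-4 at an adjusted p under 0.05, paired by letter (0.843% of the genes tested). Of these, 55 rose (0.473%) and 43 fell (0.37%). The changes were modest. The median was 0.42 for the genes that rose and -0.47 for those that fell, against 0.0082 over all genes, and 8 of the rises and 18 of the falls were larger than 0.5. All 98 had the same sign in the 3 letters. The number of calls depended on how the spread was estimated: 11 genes passed with a spread prior that ignores the level of the gene, 0 without pairing by letter, and 564 when each array entered on its own. Without letter a 166 genes passed, without letter b 80 and without letter c 369, of which 77, 48 and 93 were among the 98. Of 48 called genes followed through each setting, 7 lost their call without letter a (Slc25a1, Tcp11l2, Chac1, Psat1, Id4, Srsf5 and Pdgfra), 17 without letter b and 1 without letter c (Klhdc8a). Those lost without letter b were Aurkb, Aspm, Ube2c, Csrp2, Grem1, Cyp1b1, Slc25a1, Tcp11l2, Chac1, Phgdh, Psat1, Kif11, Cdk1, Myh1, Col6a3, Igfbp5 and Pdgfra.

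The letters stood at different levels for many genes, so the arrays of the 2 times overlapped for nearly all the called genes. The averaged change still had the same sign in each letter. For some called genes arrays overlapped within a letter as well, as in letter c of Grem1 and of Tcp11l2. The 6 late and 5 earlier arrays did not overlap for 38 genes that lay above and 28 that lay below, of 11631 (0.567%). Among the called genes this was so for 1 of 55 that rose (Fst) and 2 of 43 that fell (Igf1r and Cyp1b1).

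Nr4a3 had the largest fall of the called genes. This orphan nuclear receptor and immediate early gene was at 4.23 to 5.41 over the 6 arrays of hours 7-8 (median 4.93). At hours 3-4 it was at 6.85 in hour 3 letter b, 6.67 in hour 3 letter c, and 5.34, 5.88 and 5.71 in hour 4 letters a, b and c. All 6 late arrays lay below 4 of the 5 earlier arrays, and 1 of the late arrays reached above hour 4 of letter a. The change was -1.13 (SE 0.180, limma adjusted p = 0.0038), made up of -0.25, -1.21 and -1.94 in letters a, b and c. Nr4a3 also fell without insulin: the control culture was at 7.27 at time 0, 5.82 at hours 3-4 and 5.13 at hours 7-8. With hour 4 alone as the earlier time in every letter the change of Nr4a3 was -0.81 (adjusted p = 0.017), and a dimmer second probe set of the gene changed by -0.17 (adjusted p = 0.72).

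Serpinb2, the plasminogen activator inhibitor PAI-2, had the smallest adjusted p of all. Its levels at hours 7-8 ran between 9.67 and 10.74 (median 10.52). Its levels at hours 3-4 were 11.35 and 11.57 in hour 3 letters b and c and 10.38, 11.10 and 11.28 in hour 4 letters a, b and c. The late arrays of Serpinb2 lay below every earlier array other than hour 4 of letter a. The fall of 0.68 (SE 0.064, limma adjusted p = 1.7e-05, 1.60-fold) was close to equal in the letters, at -0.63, -0.61 and -0.79. Over the course Serpinb2 in the insulin culture was lower at every hour than at the one before. It went from 11.65 at time 0 to 10.24 at hour 8, against 11.39 and 10.36 in the control culture.

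Pln encodes phospholamban, which restrains the calcium pump of the sarcoplasmic reticulum. Pln was at 8.46 to 9.77 at hours 7-8 (median 9.30), against 9.86 and 10.14 in hour 3 letters b and c and 9.38, 9.95 and 10.05 in hour 4 letters a, b and c. Letter a was lowest at both times and accounts for the overlap. The change was -0.59 (SE 0.084, limma adjusted p = 0.0015), with -0.78, -0.60 and -0.39 in the letters, and in the control culture it was 0.053 (SE 0.12), at -0.17, 0.36 and -0.024 in the letters. In the insulin culture Pln was at 10.14 at time 0, 9.79 at hour 4 and 9.10 at hour 8. In the control culture the hour levels, which average the letters, stayed between 9.91 and 10.01, but the letters drifted apart. From time 0 to hour 8 control Pln went from 10.29 to 9.48 in letter a, 9.78 to 10.26 in b and 9.97 to 10.26 in c. The difference of the cultures' changes, -0.65 (SE 0.13), did not pass over all genes (limma adjusted p = 0.42), and the second Pln probe set fell short of a call at -0.34 (adjusted p = 0.13). Adcy8, a calcium-stimulated adenylyl cyclase, fell by 0.73 (SE 0.11, adjusted p = 0.0028) and changed by -0.52 in the control culture.

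Among the other large falls were Slc16a12, a monocarboxylate and creatine transporter (-0.86), Pitpnc1, a phosphatidylinositol transfer protein (-0.68), Ackr4, a receptor that scavenges chemokines (-0.64), Dok5, an adaptor of receptor tyrosine kinases (-0.60), and Grem1, a secreted BMP antagonist (-0.60). Slc16a12 was dim, with a mean level of 5.00 at the filter limit of 5 and late arrays at 3.69 to 4.74. Ptprr, a tyrosine phosphatase that acts on ERK, fell by 0.58, Klhdc8a fell by 0.56, and Cyp1b1, a cytochrome P450 that oxidises steroids and aromatic compounds, by 0.54. Grem1 and Klhdc8a varied between letters, with -0.12 for Grem1 in letter c against -1.01 in letter b, and -0.12 for Klhdc8a in letter a against -1.11 in letter c.

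**Figure D1:**
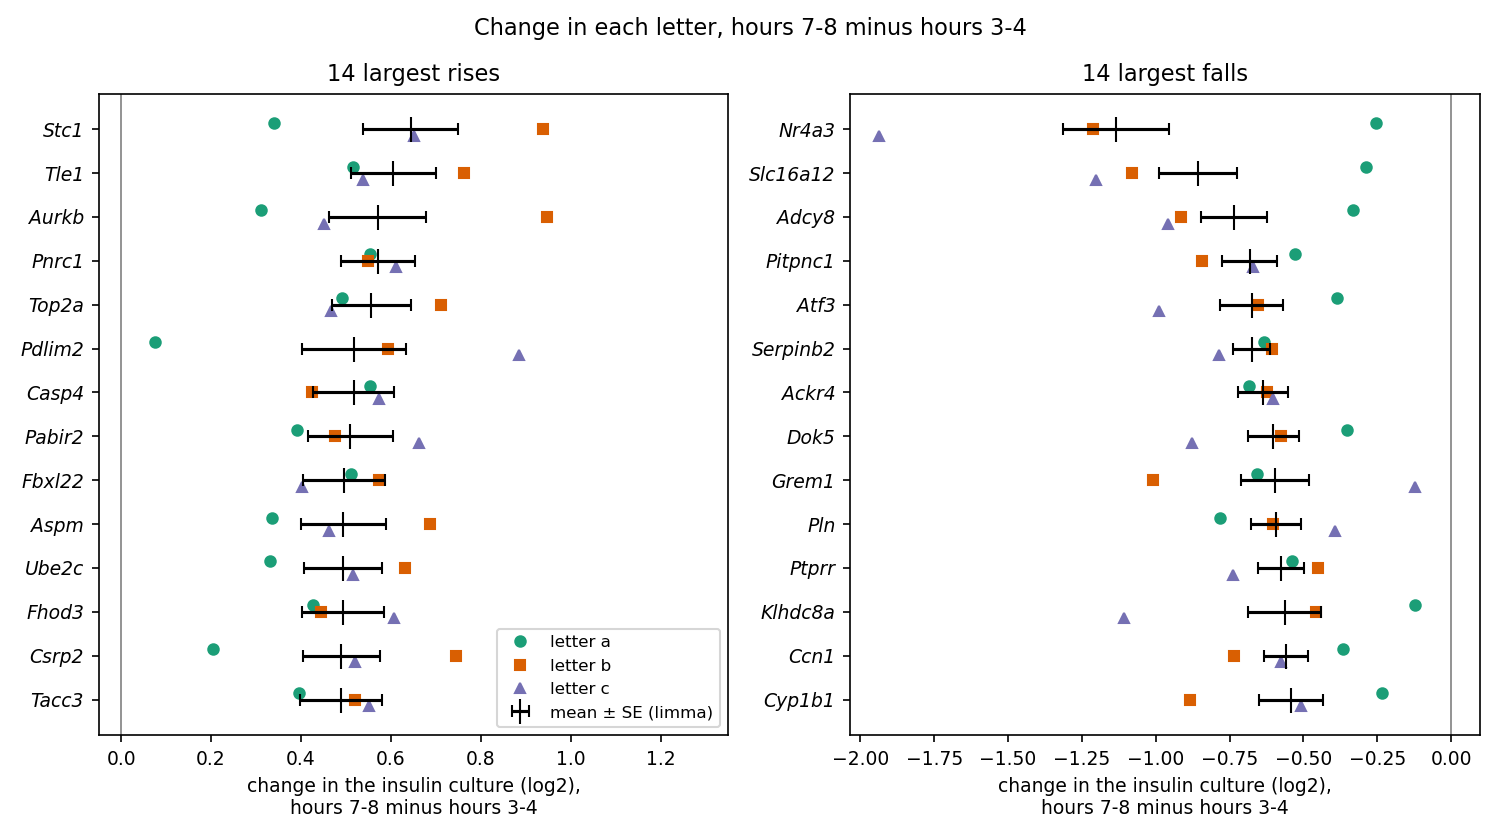
Change in the insulin culture (log2, hours 7-8 minus hours 3-4) of the 14 genes with the largest rises (left) and the 14 with the largest falls (right) among those that passed the test. Markers are letters a, b and c, and the bar is the mean with its limma standard error. Every marker lies on the same side of 0 as its mean, and letter a is closest to 0 for Nr4a3, Slc16a12 and Adcy8.

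Immediate early genes are transcribed within minutes of a mitogen and then shut off. Of the 33 measured, 3 fell (Nr4a3, Atf3 and Ccn1) and none rose. At an unadjusted p under 0.05, 10 were lower and 2 higher, where 3.74% and 5.7% of all genes were, and the median of the list was -0.067. The list median in the control culture was close to this, at -0.062, and that of the difference of the cultures was -0.022. Without letter a 5 members fell and without letter c 6. Atf3, a stress-induced bZIP repressor, was at 6.44 to 7.51 at hours 7-8 (median 6.96), against 7.58 and 7.50 in hour 3 letters b and c and 7.68, 7.65 and 7.55 in hour 4 letters a, b and c. The earlier arrays of Atf3 were nearly level and the late arrays spread below them, with 1 overlapping pair. The change of Atf3 was -0.68 (SE 0.11, limma adjusted p = 0.0036), against -0.29 (SE 0.17) in the control culture. Its course in the insulin culture went up and down again: 6.67 at time 0, 7.66 at hour 3 and 6.78 at hour 8. Ccn1, a matricellular protein and YAP target, fell by 0.56 (SE 0.075, limma adjusted p = 0.0011), with -0.19 (SE 0.20) in the control culture, where letter b went down (-0.93) and letters a and c did not (0.17 and 0.19). Egr1 (-0.44) and Egr2 (-0.40) did not pass, and Fos (-0.039) and Jun (0.082) were among the members with little change.

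Genes of growth factor and insulin signalling were mostly level. Of 45 measured members of the insulin receptor pathway, 1 fell, Igf1r, the receptor for IGF-1, and none rose. Igf1r was at 9.52 to 9.89 at hours 7-8 (median 9.77), against 10.22 and 10.33 in hour 3 letters b and c and 10.07, 10.04 and 10.26 in hour 4 letters a, b and c. Every late array was below every earlier one. The change of Igf1r was -0.42 (SE 0.087, limma adjusted p = 0.025), the control culture changed by -0.27, and a second probe set by -0.20 (adjusted p = 0.62). Igf1r did not pass with hour 4 alone as the earlier time, nor with the mean over probe sets. Insr, Irs2, Akt2 and Slc2a4, the insulin receptor, a receptor substrate, a kinase and the GLUT4 transporter, changed by 0.030, 0.032, 0.079 and 0.0088, and Grb10, an adaptor that inhibits the receptor, by 0.27 (adjusted p = 0.065).

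FOXO-regulated genes, which insulin is known to lower, went both ways. Of 32 measured, 1 rose and 1 fell, and the median was -0.040, against 0.075 in the control culture. Pnrc1, a nuclear receptor coactivator, was at 8.17 to 9.61 at hours 7-8 (median 9.12), against 8.77 and 7.54 in hour 3 letters b and c and 9.01, 8.37 and 7.76 in hour 4 letters a, b and c. Letter c was low at both times, and each letter was higher late by nearly the same amount, 0.55, 0.55 and 0.61. The rise in Pnrc1 was 0.57 (SE 0.082, limma adjusted p = 0.0018), against -0.053 (SE 0.17) in the control culture, where Pnrc1 changed by 0.19, -0.64 and 0.29 in letters a, b and c. It followed a dip in the insulin culture, with 9.08 at time 0, 8.38 at hour 4 and 9.03 at hour 8. The control culture was at 9.41, 10.01 and 9.97, so the late levels with insulin remained under those of the control culture. Txnip, an alpha-arrestin that restrains glucose uptake, fell by 0.42 (SE 0.084, adjusted p = 0.020), and the related Arrdc4 fell by 0.53 (adjusted p = 0.048). Both were also lower late without insulin: from hours 3-4 to hours 7-8 control Txnip went from 11.54 to 11.19 and control Arrdc4 from 5.79 to 5.38.

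**Figure D2:**
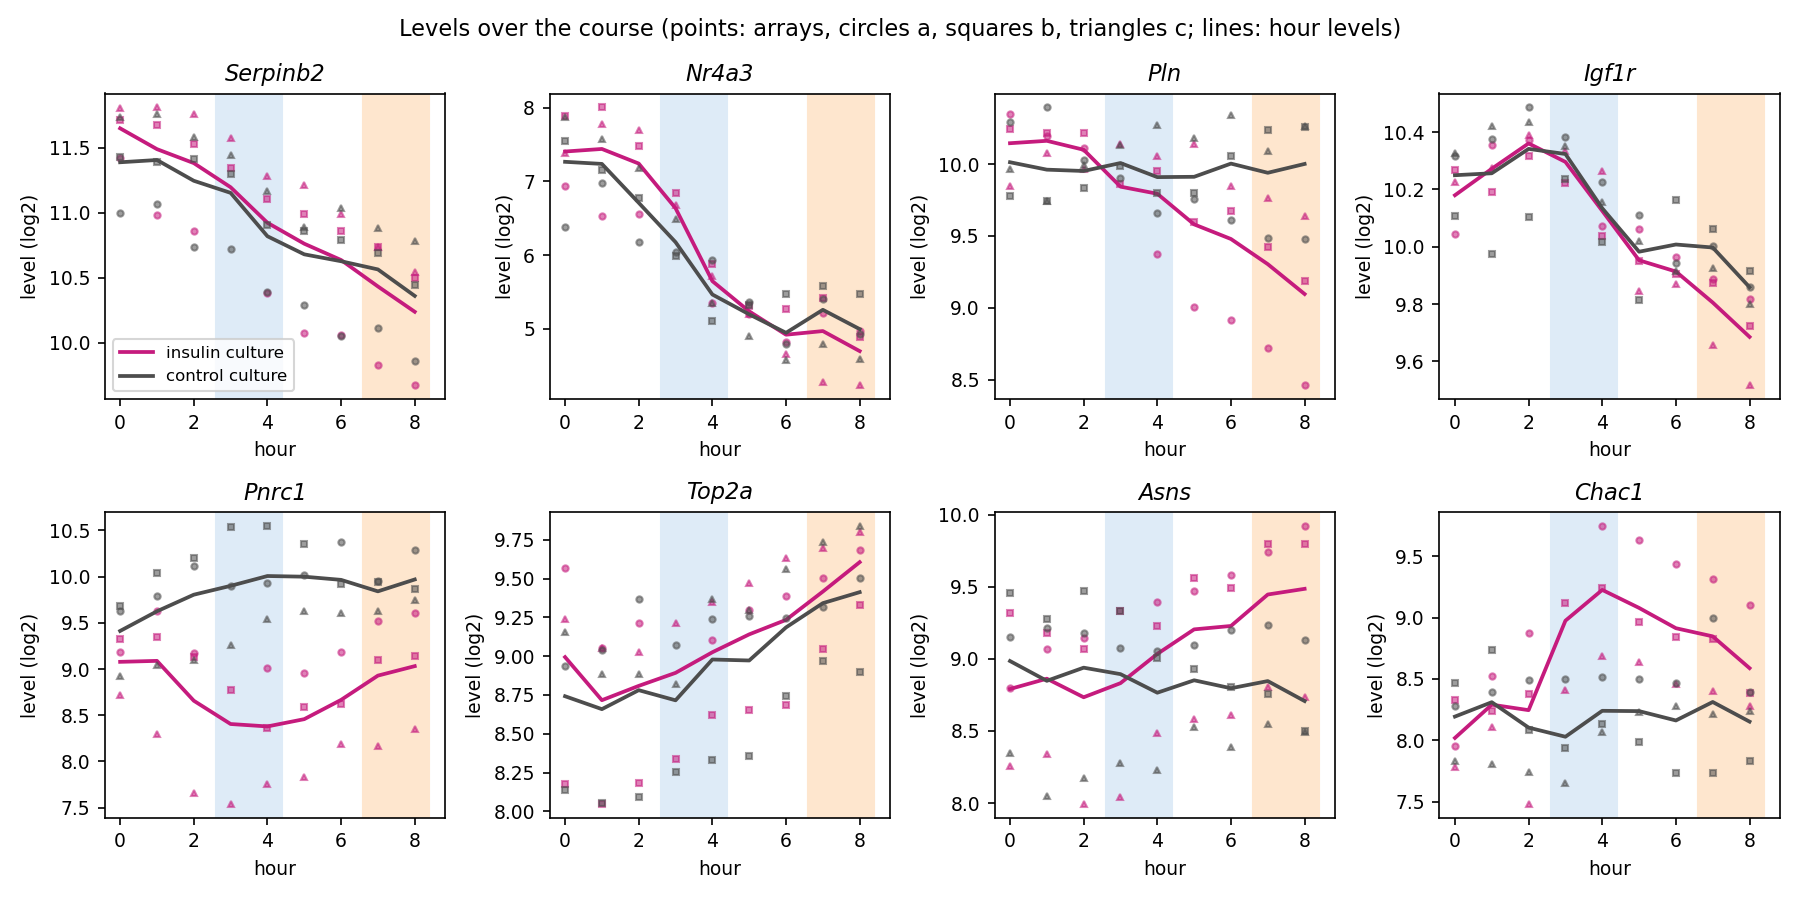
Log2 levels by hour of 8 genes in the insulin and control cultures. Points are arrays (circles letter a, squares b, triangles c), lines are hour levels from an additive fit of hour and letter, and the shaded bands mark hours 3-4 (blue) and 7-8 (orange). The lines of Serpinb2, Nr4a3 and Top2a lie close in both cultures, those of Pln and Asns part, Pnrc1 with insulin dips to 8.38 at hour 4 and is at 9.03 at hour 8, and Chac1 peaks at hour 4 (9.23).

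The list of DNA replication and mitosis held more called genes than any other examined, all of them rises. Of 42 measured members of the DNA replication and mitosis list, 7 rose (Aurkb, Top2a, Kif11, Cdk1, Bub1, Mki67 and Prc1) and none fell. Over all genes tested, 0.473% rose and 0.37% fell. At an unadjusted p under 0.05, 22 were higher and none lower, where 5.7% and 3.74% of all genes were. Of the 42 changes 40 were positive, against 53.5% of all genes. The median was 0.21, with 0.13, 0.38 and 0.19 in letters a, b and c. Without letter b the median was 0.14 and 1 member passed, without letter a 13 passed and without letter c 16. The list median in the control culture was 0.27 (0.10, 0.39 and 0.36 in the letters), and that of the difference of the cultures was -0.036.

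Top2a, which untangles chromosomes before they part, was at 9.05 to 9.80 at hours 7-8 (median 9.60), against 8.34 and 9.21 in hour 3 letters b and c and 9.10, 8.62 and 9.35 in hour 4 letters a, b and c. Letter b was low at both times, and the late arrays of each letter were above its own earlier arrays. The rise in Top2a was 0.56 (SE 0.088, limma adjusted p = 0.0038), at 0.49, 0.71 and 0.47 in the letters, and its second probe set rose by 0.54 (adjusted p = 0.0058). Aurkb, the kinase of the chromosomal passenger complex, rose by 0.57 (SE 0.11, adjusted p = 0.013) and did not pass without letter b. Cdk1, the kinase that triggers mitosis, was at 10.03 to 11.16 (median 10.36) at hours 7-8, against 9.54 and 10.52 in hour 3 letters b and c and 10.09, 9.67 and 10.64 in hour 4 letters a, b and c, and rose by 0.42 (SE 0.078, adjusted p = 0.012). Its levels too were above the earlier ones within each letter, and it did not pass without letter b.

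Among the members that did not pass were the helicase subunits Mcm2, Mcm3, Mcm4, Mcm5, Mcm6 and Mcm7, at -0.053, 0.072, 0.067, 0.14, 0.13 and 0.0079. Nor did Pcna, the sliding clamp (0.082), or the licensing factor Cdt1 (-0.18) pass, and the largest changes without a call were those of the cyclin Ccna2 (0.39) and of Nusap1, a spindle protein (0.39). Outside the list, the called rises held further genes of the spindle and of chromosome separation: Aspm (0.49), Tacc3 (0.49), Spag5 (0.46), Esco2 (0.46), Cit (0.46), Espl1 (0.42), Melk (0.41), Cks2 (0.34) and Ube2c, which drives cyclin destruction (0.49). In the control culture Aspm changed by 0.49, Tacc3 by 0.52 and Spag5 by 0.51. A dimmer probe set of Tacc3 changed by 0.0071 with insulin.

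Promoters of 2 of these genes are shown to set the mitotic genes beside 2 short elements: the CCAAT box, bound by NF-Y, and the cell cycle homology region (TTTGAA), bound by the DREAM complex. Each stretch is the 250 bases before the RefSeq start on the gene's strand (build GRCr8), 5′ to 3′, with matches to either element on either strand in capitals. Top2a is at chr10:84473094-84473343 on the minus strand and Cdk1 at chr20:19265043-19265292 on the plus strand.
Top2a: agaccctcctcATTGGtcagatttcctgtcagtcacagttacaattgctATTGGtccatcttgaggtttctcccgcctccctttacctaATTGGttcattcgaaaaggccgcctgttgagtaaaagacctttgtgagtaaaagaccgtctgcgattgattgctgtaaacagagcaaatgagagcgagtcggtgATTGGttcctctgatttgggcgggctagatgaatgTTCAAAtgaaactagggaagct
Cdk1: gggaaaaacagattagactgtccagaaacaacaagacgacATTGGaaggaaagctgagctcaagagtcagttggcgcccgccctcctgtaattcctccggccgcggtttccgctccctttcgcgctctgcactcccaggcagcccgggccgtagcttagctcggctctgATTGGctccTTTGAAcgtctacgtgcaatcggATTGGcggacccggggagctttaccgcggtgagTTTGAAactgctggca
Counted over the 250 bases before and 50 after the start, CCAAT stood in 27 of the 37 list members with a promoter (73%), against 37.7% of the 9071 tested genes with one, and TTTGAA in 14 (37.8%), against 11.4%. Of the 6 called members with a promoter, 5 held CCAAT and 4 held TTTGAA. Top2a carried 4 CCAAT matches and 1 TTTGAA match in the stretch shown, and Cdk1 carried 3 and 2.

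Several genes of amino acid synthesis rose with insulin, and other targets of ATF4 fell. Of 33 measured members of the ATF4 and amino acid response list, 4 rose (Asns, Phgdh, Vldlr and Psat1) and 2 fell (Atf3 and Chac1). Of all genes tested, 0.473% rose and 0.37% fell. At an unadjusted p under 0.05, 12 were higher and 3 lower, where 5.7% and 3.74% of all genes were. The median was 0.12, with 0.26, 0.092 and 0.061 in letters a, b and c. Without letter c 10 members rose, without letter a 2 and without letter b 2, and with hour 4 alone or the mean over probe sets 1 did. In the control culture the median was -0.15, with 0.11, -0.37 and -0.065 in the letters. Atf4 itself changed by -0.00080.

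Asns, which makes asparagine, was at 8.74 to 9.92 at hours 7-8 (median 9.77), against 9.33 and 8.04 in hour 3 letters b and c and 9.39, 9.22 and 8.49 in hour 4 letters a, b and c. Letter c was lowest at both times, and the change was close to equal in the letters at 0.44, 0.52 and 0.50. The rise in Asns was 0.49 (SE 0.085, limma adjusted p = 0.0074), against -0.050 (SE 0.16) in the control culture, where Asns changed by 0.13, -0.54 and 0.27 in letters a, b and c. Phgdh and Psat1, consecutive enzymes of serine synthesis, rose by 0.44 (SE 0.090, adjusted p = 0.026) and 0.33 (SE 0.075, adjusted p = 0.045), against -0.28 and -0.080 in the control culture. By letter, the control changes were 0.055, -0.84 and -0.065 for Phgdh and 0.11, -0.37 and 0.020 for Psat1. Psat1 did not pass without letter a, neither gene passed without letter b, and neither passed with hour 4 alone as the earlier time. Psph, the enzyme that completes that pathway, changed by 0.35 and did not pass (adjusted p = 0.069). Pck2, mitochondrial PEP carboxykinase, rose by 0.49 (SE 0.089, adjusted p = 0.012), with -0.14 in the control culture (0.19, -0.77 and 0.17 in the letters).

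Chac1, which degrades glutathione, took another course. Chac1 was at 8.28 to 9.31 at hours 7-8 (median 8.61), against 9.12 and 8.41 in hour 3 letters b and c and 9.75, 9.24 and 8.69 in hour 4 letters a, b and c. It was lower late within each letter (-0.54, -0.57 and -0.21), by 0.44 on average (SE 0.095, limma adjusted p = 0.035), and did not pass without letter a or without letter b. The arrays of the 2 times overlapped, and letter a was highest at both. In the insulin culture it stood at 8.02 at time 0, 9.23 at hour 4 and 8.59 at hour 8, against 8.19, 8.24 and 8.15 in the control culture.

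The promoters of Chac1, which fell, and Pck2, which rose, are shown because both hold the letters of an amino acid response element (TGATGNAA), to which ATF4 binds with a C/EBP partner. They are drawn as above, with that element in capitals: Chac1 at chr3:126795881-126796130 and Pck2 at chr15:32997603-32997852, both on the plus strand.
Chac1: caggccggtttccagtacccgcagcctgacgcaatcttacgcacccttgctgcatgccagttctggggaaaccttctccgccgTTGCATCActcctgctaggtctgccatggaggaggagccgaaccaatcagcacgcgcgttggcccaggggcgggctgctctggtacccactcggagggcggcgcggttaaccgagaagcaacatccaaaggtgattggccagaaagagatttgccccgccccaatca
Pck2: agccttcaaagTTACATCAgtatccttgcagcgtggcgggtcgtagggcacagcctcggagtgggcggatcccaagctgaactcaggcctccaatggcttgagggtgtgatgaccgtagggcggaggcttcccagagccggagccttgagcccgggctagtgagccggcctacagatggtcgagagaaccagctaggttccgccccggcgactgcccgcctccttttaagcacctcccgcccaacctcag
The match begins 167 bases before the start in Chac1 and 239 in Pck2. The element stood in 6 of the 29 list members with a promoter (20.7%), against 2.03% of the tested genes. Pck2 is not a member of the list. Of the 5 called list members with a promoter, only Chac1 held the element. Phgdh and Psat1 had no match to these letters in that window.

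**Figure D3:**
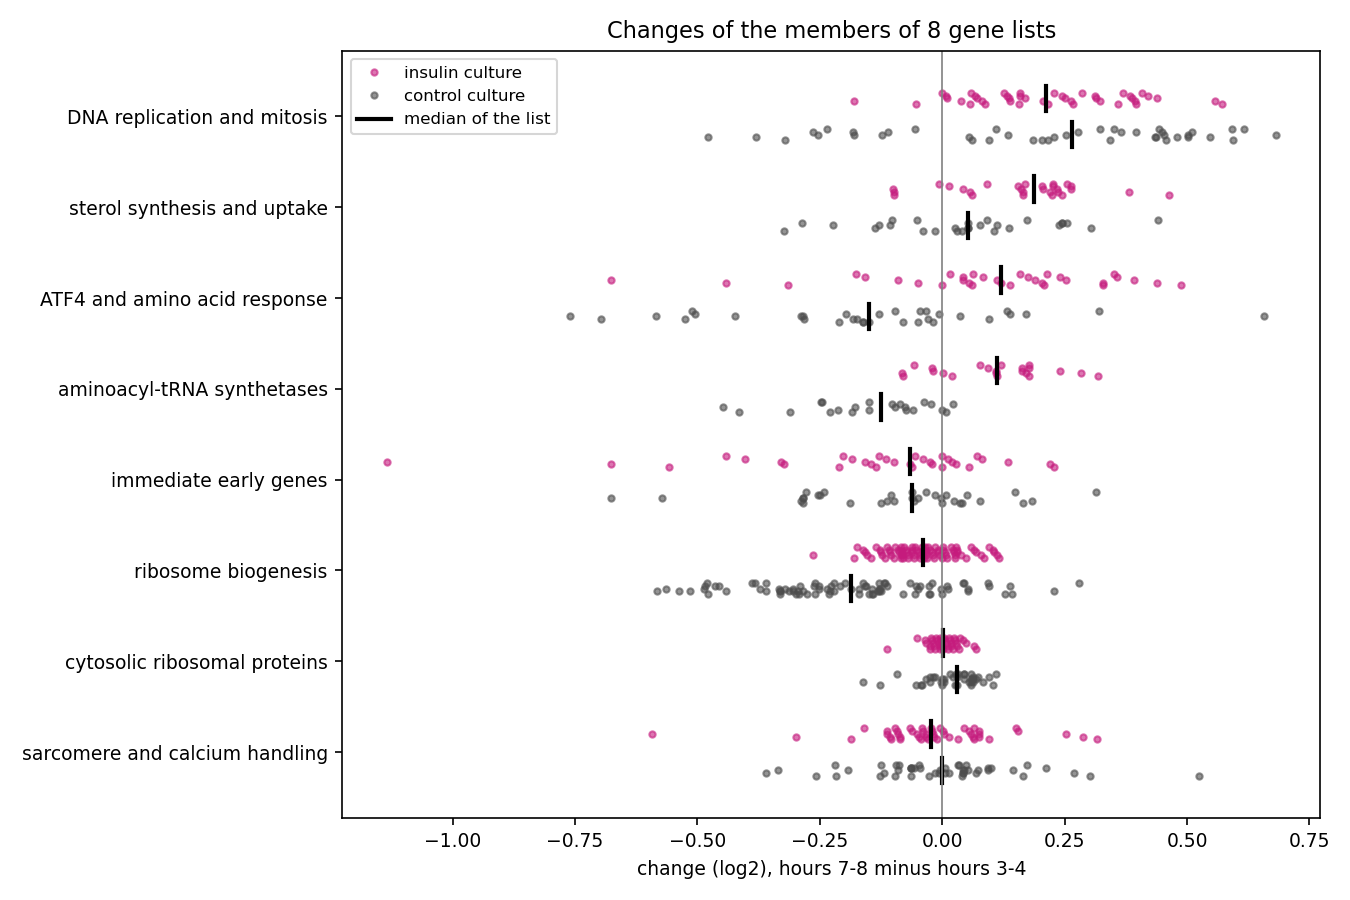
Changes of the measured members of 8 gene lists (log2, hours 7-8 minus hours 3-4), each gene a point, with the insulin culture above the control culture and the list median as a black bar. The medians of DNA replication and mitosis are near each other (0.21 with insulin and 0.27 in the control culture), those of the ATF4 list lie on either side of 0 (0.12 and -0.15), and ribosomal proteins stay near 0 in both (0.00055 and 0.029).

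The aminoacyl-tRNA synthetases, which load amino acids onto tRNA, had no member past the test among 22 measured. Their median was 0.11, with 0.24 and 0.20 in letters a and b and -0.080 in letter c, and the largest changes were those of Iars1 (0.32, adjusted p = 0.14) and Cars1 (0.28, adjusted p = 0.13). Ribosome biogenesis had none of 87 past the test (median -0.039), although its letters again did not run together, at 0.091, -0.018 and -0.20. The 41 cytosolic ribosomal proteins were level (median 0.00055).

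In sterol synthesis and uptake, 1 of 28 measured members rose, Acat2, the thiolase that condenses acetyl-CoA at the start of the pathway. Acat2 was at 10.41 to 11.33 at hours 7-8 (median 11.07), against 9.68 and 10.33 in hour 3 letters b and c and 10.98, 10.12 and 10.59 in hour 4 letters a, b and c. All late arrays were above the hour 3 arrays, and those of letter b stood below hour 4 of letter a. The rise in Acat2 was 0.46 (SE 0.080, limma adjusted p = 0.0074), against 0.11 in the control culture. Another 13 sterol genes were higher at an unadjusted p under 0.05 and none lower, where 5.7% and 3.74% of all genes were. Among them were Mvk (0.38), Fdps (0.24) and Cyp51 (0.24), and the list median was 0.19. A dimmer probe set of Cyp51 rose by 0.37 and passed (limma adjusted p = 0.032). Without letter a 6 sterol genes rose and without letter c 3. The median was 0.17 and 0.34 in letters b and c and -0.011 in letter a, whose earlier level came from hour 4 alone. With hour 4 alone in every letter the list median was 0.12 and Acat2 did not pass. Slc25a1, the mitochondrial citrate carrier that feeds lipid synthesis, rose by 0.41 (SE 0.086, adjusted p = 0.030), at 0.42, 0.43 and 0.38 in the letters, against -0.31 (SE 0.12) in the control culture (-0.11, -0.60 and -0.21 in the letters). Of 31 genes of fatty acid and lipid synthesis none passed, 10 were higher and none lower at an unadjusted p under 0.05, and the median was 0.076. Acly, which splits citrate into acetyl-CoA, was the nearest to a call at 0.30 (adjusted p = 0.075).

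Secreted regulators of the TGF-beta family moved in both directions. Of 37 measured members of activin, BMP and TGF-beta signalling, 1 rose and 3 fell. Fst, follistatin, which binds activin and myostatin, was at 11.62 to 11.84 at hours 7-8 (median 11.77), against 11.17 and 11.53 in hour 3 letters b and c and 11.50, 11.34 and 11.57 in hour 4 letters a, b and c. Every late array of Fst was above every earlier one, and the rise was 0.31 (SE 0.054, limma adjusted p = 0.0072). That rise was a partial return, since Fst in the insulin culture was at 12.07 at time 0, 11.35 at hour 3 and 11.72 at hour 8. The control culture dipped and partly returned too, with Fst at 12.08 at time 0, 11.48 at hours 3-4 and 11.62 at hours 7-8. The falls were those of Grem1, of the ligand Tgfb3 (-0.40, adjusted p = 0.032) and of Id4, a helix-loop-helix inhibitor (-0.42, adjusted p = 0.033), whose dimmer probe sets did not pass (-0.13 and -0.078). Tgfb3 changed by -0.86 in the control culture. Outside the list, Bambi, a decoy receptor for the family, fell by 0.44 (-0.63 in the control culture), and Rgmb, a BMP co-receptor, rose by 0.36 (0.43 in the control culture). Stc1, the secreted glycoprotein stanniocalcin 1, had the largest rise of any called gene with insulin, 0.64 (SE 0.10, adjusted p = 0.0050), and 1.06 (SE 0.16) in the control culture, and its second probe set rose by 0.63 with insulin (adjusted p = 0.0072).

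Few contractile genes moved. Of 48 measured sarcomere and calcium handling genes, 1 rose, Myh1 (a fast myosin heavy chain, 0.32, adjusted p = 0.025), and 1 fell, Pln. The 4 dimmer probe sets of Myh1 changed by -0.024 to 0.19 and none passed, and myosin heavy chain genes are alike in sequence, so this call is uncertain. Outside that list, the sarcomere proteins Fhod3, a formin, and Fbxl22, an F-box protein, rose by 0.49 and 0.50, the LIM protein Csrp2 by 0.49, and talin 2 (Tln2), a link between integrins and actin, by 0.41. Fermt2, which activates integrins, fell by 0.28. Among matrix genes 1 of 50 rose, Col6a3 (0.34, adjusted p = 0.0074), whose dimmer probe set did not pass (0.24, adjusted p = 0.38). Casp4, an inflammatory caspase, rose by 0.52, and Tle1, a Groucho corepressor, by 0.61.

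Further called genes encode receptors, ligands and surface proteins. Pdgfra, the PDGF receptor and a marker of fibroblasts, fell by 0.40 (adjusted p = 0.042), and it was the only call among the 9 measured fibroblast markers, whose median was 0.023. Cxcl12, the ligand of CXCR4, fell by 0.44 (limma adjusted p = 0.0038), and changed by -0.41 in the control culture. Its dimmer probe sets fell as well, by 0.92 (adjusted p = 1.7e-05) and 0.48 (adjusted p = 0.023), so the size of the fall in Cxcl12 depends on the probe set. Calcrl, a receptor for CGRP and adrenomedullin, fell by 0.51, F2r, the thrombin receptor, by 0.20, and Akap12, a scaffold of protein kinase A, by 0.50. Igfbp5, which binds IGFs, rose by 0.44 (adjusted p = 0.037), against -0.055 in the control culture, and its 4 dimmer probe sets did not pass (0.043 to 0.29). Creb3l1, a transcription factor of secretory cells, rose by 0.41, against -0.24 in the control culture (-0.20, -0.57 and 0.062 in the letters). Oga, which removes O-GlcNAc from proteins, fell by 0.51 (adjusted p = 0.050), and the splicing factor Srsf5 by 0.31.

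Other metabolic and housekeeping lists held no called gene by limma. None of 61 genes of oxidative phosphorylation passed (median 0.027, 3 higher and 0 lower at an unadjusted p under 0.05), nor any of 40 proteasome genes (median -0.014, 3 and 0), 36 autophagy genes (median -0.0011, 0 and 1) or 47 lysosome genes (median 0.033, 2 and 1). Of 21 atrophy ligases and related proteolysis genes, none passed (median -0.0055, 1 and 2).

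The courses of the called genes were of several kinds. From hours 1-2 through 3-4 and 5-6 to 7-8, 44 of the 55 rises and 27 of the 43 falls ran one way over all 3 steps, which reuse the arrays compared here. In 11 rises, among them Pnrc1, Fst and Myh1, and 15 falls, among them Atf3, Chac1 and Txnip, the step before hours 3-4 went the other way. The remaining fall, Arhgap18, turned at a later step. Arrays at hours 1-2 and 5-6 took no part in the comparison. Between them the change had a median of 0.37 for the rises and -0.39 for the falls, with the same sign in 51 of 55 and 38 of 43, against a median of 0.024 over all genes, of which 58.8% were positive. Against time 0, hours 7-8 were higher for 52 of the 55 rises (median 0.52) and lower for 38 of the 43 falls (median -0.51), in values that reuse the late arrays.

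The control culture addresses whether these changes were those of insulin or of time in serum-free medium. By the same test no gene passed there (limma), with 1599 genes at an unadjusted p under 0.05 (7.79% higher and 5.96% lower) and 1971 called when each array entered on its own. Without letter a 37 genes passed there and without letter b 12. The 98 genes had the same sign without insulin for 45 of the 55 rises (median 0.22 in the control culture) and 35 of the 43 falls (median -0.27). The test of the difference between the cultures' changes called no gene either (limma), with 612 when each array entered on its own and 1383 at an unadjusted p under 0.05 (5.98% positive and 5.92% negative). Among those 1383 were 16 of the 55 rises and 14 of the 43 falls. The insulin change by which the 98 genes were picked is itself part of this difference, from the same arrays. Their share among the 1383 is therefore not an independent test. For Top2a, Aspm, Lurap1l and Tacc3 the difference was 0.053 (SE 0.13), 0.0031 (SE 0.13), -0.0090 (SE 0.13) and -0.027 (SE 0.13). These SEs leave room for differences of either sign, so equal changes were not shown.

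**Figure D4:**
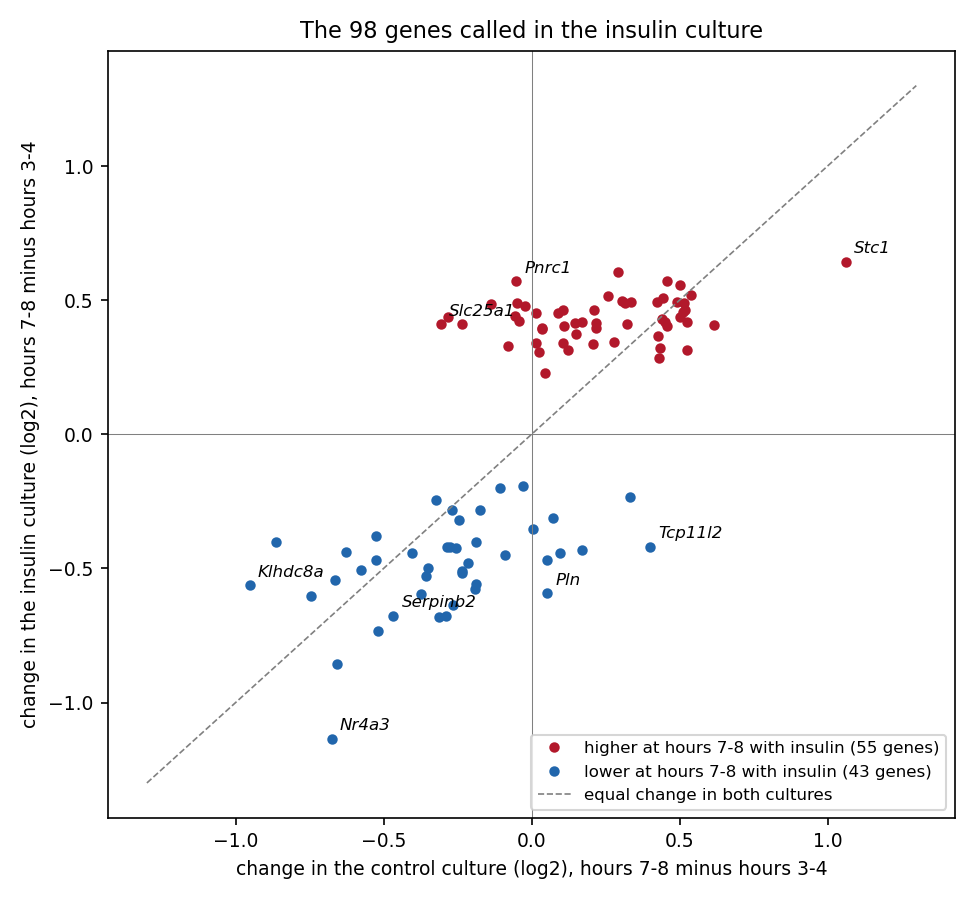
Change with insulin (vertical, log2, hours 7-8 minus hours 3-4) against the change in the control culture (horizontal) of the 98 called genes, with a dashed line for equal change. Most genes lie on the same side of 0 in both cultures, and Pnrc1, Pln, Slc25a1 and Tcp11l2 lie where the mean of the control culture was near 0 or on the other side. The control mean of Pnrc1 (-0.053) combines 0.19, -0.64 and 0.29 in letters a, b and c.

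Some genes had large differences between the cultures, though none passed with all letters (adjusted p = 0.42 for each of the 12 named here). Tcp11l2 was at 8.65 to 9.31 at hours 7-8 (median 9.01), against 9.83 and 9.07 in hour 3 letters b and c and 9.63, 9.67 and 8.71 in hour 4 letters a, b and c. Letter c was low at both times, and the late arrays of letters a and b were below their own earlier ones. Tcp11l2 fell with insulin by 0.42 (SE 0.088, limma adjusted p = 0.030), against 0.40 (SE 0.10) in the control culture, a difference of -0.82 (SE 0.12). Slc25a1, described above, had a difference of 0.72 (SE 0.13). The other 10 changed little with insulin, and the difference lay in the control culture. Slc7a5, a leucine transporter, changed by 0.19 with insulin and -0.76 without (difference 0.95, SE 0.17), Srm, spermidine synthase, by 0.082 and -0.81 (difference 0.89, SE 0.15), and Slc2a1, the GLUT1 glucose transporter, by 0.080 and -0.54 (difference 0.62, SE 0.11). Frs3 (0.84) and Rbm42 (0.62) also had positive differences.

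On the negative side were Trim34 (-0.92), Omd (-0.78), Ccpg1 (-0.78), Aspn (-0.72) and Pcmtd2 (-0.63). Omd and Aspn are small leucine-rich proteoglycans of the matrix and Ccpg1 is a receptor for autophagy of the endoplasmic reticulum. With insulin these 5 changed by -0.15 (Aspn) to -0.057 (Omd), and in the control culture by 0.51 (Pcmtd2) to 0.78 (Trim34). Without letter b, whose control arrays stood apart, 45 genes passed the test of the difference, 15 positive and 30 negative, and all 12 named genes were among them (limma adjusted p between 0.0074 and 0.045). That fit rests on 2 letters. The 12 genes were chosen for their differences in the full data, which include those letters. Their passing was therefore not an independent test of these genes.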

How the data were processed

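RNA was measured on Affymetrix rat arrays, which the authors quantile-normalised and summarised by RMA; the deposited log2 levels were used as given. The authors left out hour 3 of letter a of the insulin culture for poor quality plots. Of 31099 probe sets, 57 control probe sets and those with a mean below 5 were dropped, which left 22143, of which 16370 have 1 symbol (11631 genes, each at its brightest probe set). Levels of hours 7-8 and 3-4 were averaged within each letter, and their differences were tested with limma 3.58.1 in R 4.3.3 (trended prior, Benjamini-Hochberg adjustment over all 22143 probe sets). Differences of the insulin and control changes were tested the same way.

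Pairing follows the letter, which marks the day of the repeat: deviations from the group means at the 2 times correlated at 0.85, 0.561 and 0.767 in letters a, b and c. The arrays, genes and lists were chosen with earlier results of these data known. Named are the 14 largest rises and 14 largest falls among the called genes, 6 genes on each side of the difference between cultures, and up to 4 members of each list. Other genes, and the TTTGAA element, were added after their values were seen. Promoters from RefSeq (GRCr8) matched 9071 genes, and 72 of the 98 called genes. 8 motifs were searched on both strands. The fits were checked on simulated data. Alternatives were other filters, centring, probe averaging, priors, pairing and leaving out each letter.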

Additional observations from a re-analysis of the deposited data

Results flagged for a closer look

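Over the 28 genes with the largest changes, the late and the earlier arrays were each screened for a lone array far from the rest, and 1 of the 56 groups was picked out, where chance alone picks about 1 in 20. In Grem1 at hours 3-4, the lowest array, hour 4 of letter a at 8.43, was separated from the others (10.01 to 10.58) by 0.737 of the group's range. Letter a was also lowest at hours 7-8 (7.62), and the change within letter a was -0.66.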

How the results depend on the processing

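For the insulin comparison (98 genes called), no replicate block gave 0 calls, arrays one by one with the replicate block 564, hour 4 alone as the earlier time 39, a mean of at least 7 gave 29, a prior without trend 11 and the mean over a gene's probe sets 55. Leaving out 1 letter gave 80 to 369 calls. With 3 letters the error draws in part on the spread shared by genes of similar level, and with 2 letters mostly so. For the difference of the cultures (0 called), arrays one by one with the replicate block gave 612 and leaving out 1 letter 0 to 45. For the control culture (0 called), arrays one by one with the replicate block gave 1971 and leaving out 1 letter 0 to 37. No filter, arrays centred on their median and adjustment over genes kept each count within 1.5 times, and so did both earlier hours for control letter a in the difference. The cause of the differences was not tested. Centring moved the median change over all genes from 0.0082 to 0.00085. Of 48 named genes called in the insulin comparison, 11 passed without trend (Serpinb2, Ackr4, Ptprr, Pitpnc1, Pln, Adcy8, Atf3, Pnrc1, Tle1, Top2a and Casp4), 29 with hour 4 alone, and none changed direction under any of these settings. Rises that lost their call with hour 4 alone were Pdlim2, Casp4, Pabir2, Fhod3, Slc25a1, Phgdh, Psat1, Acat2, Kif11, Myh1 and Igfbp5. Falls that did were Grem1, Klhdc8a, Tcp11l2, Igf1r, Txnip, Id4, Tgfb3 and Pdgfra. The number of arrays, with 3 letters and no hour 3 array of letter a, limits the precision.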
